A study of Rattus norvegicus with 16 samples.

Results

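Hypoxia-inducible factors (HIFs) and their targets were followed through 10 genes. These were the factor subunits Hif1a and Epas1, the prolyl hydroxylases Egln1, Egln2 and Egln3, and the target genes Vegfa, Bnip3, Adm, Ndrg1 and P4ha1. They were given by name, and all 10 were found in the gene column of a count table of 32623 genes, of which 22082 had a count in at least 1 library. A HIF pairs an oxygen-labile alpha subunit with a stable beta subunit of the ARNT family. In oxygenated cells the EGLN enzymes hydroxylate the alpha subunit, which the VHL ubiquitin ligase then marks for degradation, so the pathway is controlled largely at the level of protein. When the alpha subunit is spared, HIFs bind short response elements in DNA and raise genes of angiogenesis, glycolysis and mitochondrial turnover, and in the kidney they are known for erythropoietin production and for the response of tubules to poor perfusion.

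The study put rat kidney epithelial cells of the line NRK-52E, which has features of the proximal tubule, on permeable filter inserts above NRK-49F kidney fibroblasts, so that both lines shared a medium without direct contact. After 24 h without serum, the cells were held for 48 h at pH 7.4 or in acidic medium of pH 6.0, which the sample labels write as pH 7 and pH 6. Poly(A) RNA of each line was then sequenced separately, with 4 libraries for each of the 4 groups: NRK-52E at pH 7.4, NRK-52E at pH 6.0, NRK-49F at pH 7.4 and NRK-49F at pH 6.0. Both are continuous lines, and the study's methods leave a very small chance that fibroblasts adhered to the filter membrane. Nothing in the labels states that the 4 libraries of a group came from separate cultures, so p-values may measure technical spread. HIF protein and oxygen in the medium were not analysed here.

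The total of fragments counted on genes ran from 17760185 to 20612657 in NRK-52E at pH 7.4 (median 19132387.5), and from 16844811 to 23856187 in NRK-52E at pH 6.0 (median 21199012). In NRK-49F it ran from 17518187 to 27607214 at pH 7.4 (median 20316553.5), and from 16201084 to 34784862 at pH 6.0 (median 29093537). Levels are given in FPM, the CPM scale of edgeR for fragments, with library sizes adjusted by the trimmed mean of M-values (TMM), with the mean and SD over the 4 libraries of a group. A gene is called where its Benjamini-Hochberg adjusted p is below 0.01 in both edgeR and DESeq2 with the same sign. Each tool adjusted over its own genes. Genes counted as tested passed edgeR's filter on low counts, and in the reported fits DESeq2 was run without that filter. Log2 fold changes are those of edgeR. Their standard errors (SE) were derived as the absolute log2 fold change over the square root of edgeR's F statistic. An exact two-sided permutation test of 4 against 4 libraries can give no p below 0.0286, and this value was reached wherever the groups are said not to overlap. Intervals and floors below cover counting error only. The scaling sets the zero of each comparison. With library totals in its place, the median over all tested genes moved from 0.0014 to -0.21 for pH 6.0 against pH 7.4 in NRK-52E, from 0.029 to 0.34 for NRK-52E against NRK-49F at pH 7.4, and from -0.027 to 0.12 between the lines at pH 6.0. The share of calls that were higher went with it from 49.8% to 37.6% for NRK-52E at pH 6.0, and from 49.99% to 65.7% in NRK-52E against NRK-49F at pH 7.4.

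One library stood apart from its group more often than the others. Over 50 HIF-related genes and 192 groups of 4 values, 19 groups held a value set off from the other 3 by most of the group's range (the threshold is Dixon's for a 95% level). Library N8 (NRK-52E, pH 6.0) was that value in 6 of the 19, N1 (NRK-52E, pH 7.4) in 4, and no other library in more than 2. These include Flt1 in N8, Adm in N1 and Flt4 in N16, where the other libraries were at 0 and any count stands apart. Hif1a was among the 6 for N8, and changes without N8 are given below for Hif1a, Cited2, Ca9 and Bnip3l. The column names of the table also carry a second number whose meaning is not stated. It is 21 for N1 to N4 and 22 for N5 to N8 in NRK-52E, and 20 for N9 to N12 and 21 for N13 to N16 in NRK-49F. Each number covers 2 libraries at each pH within a line, and for the 10 genes pH effects within a number are given where they were tested. A fit within a number has 4 libraries for a line.

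The lines were checked against cell type markers. All 8 epithelial markers were in the table. Their summed level was 853 ± 16.1 FPM in NRK-52E at pH 7.4 and 893.0 ± 88.3 at pH 6.0, against 989 ± 55.1 and 334 ± 19.2 in NRK-49F. Krt8 was the most abundant at 433.5 FPM in NRK-52E and 854.5 in NRK-49F at pH 7.4, where the sum was higher in NRK-49F. At pH 6.0 it was higher in NRK-52E, and its most abundant gene there was Tjp1 (571 FPM). Of 5 epithelial markers tested in NRK-52E, 4 fell at pH 6.0 (Cdh1, Krt8, Krt19 and Ocln) and Tjp1 rose, with a median effect of -1.63 on the log2 scale, where 28.5% of all tested genes were called lower and 28.2% higher. The similar sums at the pH values thus do not stand for unchanged markers. In NRK-49F 2 of 4 fell and the others were not called, with a median of -1.53, where 19.4% of all tested genes were called lower. Epcam, Krt18 and Cldn1 were below 1 FPM in every group, Cdh1 and Krt19 also in NRK-52E at pH 6.0, and Cdh1 and Ocln also in NRK-49F. Of 8 fibroblast markers 7 were in the table, and they summed to 7108 ± 201 FPM in NRK-52E at pH 7.4 and 2975 ± 589 at pH 6.0, mostly from Col3a1 (6267 and 2594 FPM). In NRK-49F they summed to 25220.0 ± 1518 at pH 7.4, led by Fn1 (10850.0 FPM), and to 18590.0 ± 629 at pH 6.0, led by Col1a1 (8277 FPM). Thy1, a fibroblast surface marker, had 0 counts in all libraries, and Pdgfra was below 1 FPM in NRK-52E. Of the fibroblast markers, 4 of 5 tested fell at pH 6.0 in NRK-52E, with a median of -1.26, and 4 of 6 in NRK-49F, with a median of -1.02, and the others were not called.

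The 6 proximal tubule markers summed to 36.9 ± 7.61 and 28.6 ± 3.75 FPM in NRK-52E at pH 7.4 and pH 6.0, and to 26.0 ± 4.89 and 43.5 ± 21.03 in NRK-49F. The water channel gene Aqp1 made up most of each sum, while the transport genes Lrp2, Slc34a1 and Slc5a2 were below 1 FPM in all groups. Of 4 endothelial markers 3 were in the table, with sums of 41.5 ± 4.11 and 6.97 ± 0.930 FPM in NRK-52E, almost all from Tek, and of 0.801 ± 0.328 and 0.509 ± 0.203 in NRK-49F. The 4 leukocyte markers summed to 1.98 ± 0.436 and 3.41 ± 0.417 FPM in NRK-52E, and in NRK-49F to 81.9 ± 16.2 at pH 7.4 and 242 ± 19.1 at pH 6.0, almost all from the lysosomal gene Cd68. Kdr, a defining gene of endothelium, and Ptprc and Adgre1, which define leukocytes and macrophages, had 0 counts in all libraries. The part of these markers in the results was not tested. Fibroblast markers other than Thy1 were found in both lines. Col3a1 was higher in NRK-52E (6267 FPM against 462 in NRK-49F at pH 7.4), while Vim (689 against 7164 FPM) and Pdgfrb (46.8 against 87.9 FPM) were lower. The others were far lower, and in NRK-52E relative to NRK-49F at the same pH, Fn1 stood at 0.754% and 0.270%, Col1a1 at 0.379% and 0.215%, and Pdgfra at 0.0731% and 0.0152% for pH 7.4 and pH 6.0. In bulk RNA, fewer cells of a type and less RNA per cell cannot be told apart.

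At pH 6.0, NRK-52E cells had more Vegfa, P4ha1, Bnip3 and Hif1a transcript than at pH 7.4, and less Egln2 and Egln1. The rises ran from 1.72-fold (Hif1a) to 3.85-fold (Vegfa). NRK-49F cells at pH 6.0 had more Adm, Vegfa and P4ha1, and less Egln2 and Ndrg1. Vegfa, P4ha1 and Egln2 were thus called in the same direction in both lines. Between the lines, NRK-49F had far more Adm, Ndrg1 and Egln3 than NRK-52E, where these genes were close to 0, while Epas1 was found in NRK-52E alone and there at trace level.

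In NRK-52E, 7 of the 10 genes passed the filter on low counts and 6 were called, 4 higher and 2 lower at pH 6.0. Of 13735 tested genes, 28.2% were called higher and 28.5% lower, so calls were common in this comparison. Epas1, Egln3 and Adm were too low for edgeR's filter and so could not be called. DESeq2 gave them adjusted p = 0.0641, 0.0918 and 0.722. In NRK-49F, 9 genes were tested and 5 called, 3 higher and 2 lower, against 18.4% called higher and 19.4% called lower of 13339. At pH 7.4, 4 of 9 tested genes were called between the lines, all higher in NRK-49F, where 33.3% of 14026 genes were called higher in NRK-49F and 33.3% higher in NRK-52E. At pH 6.0 the count was 6 of 9, with P4ha1 higher in NRK-52E and 5 genes higher in NRK-49F, against 28.6% of 13796 genes called higher in NRK-52E and 31.3% higher in NRK-49F. The difference in pH effect between the lines was called for 4 of 9 genes tested, against 36.9% of 14679. Egln3 is among the 4, but its call is not read, since NRK-52E had too few fragments of it to test. With 7 to 9 genes tested, these counts are not read as a property of the genes beyond their backgrounds. Between the lines, a gene that is high in 1 line only passed the filter through that line.

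**Figure D1:**
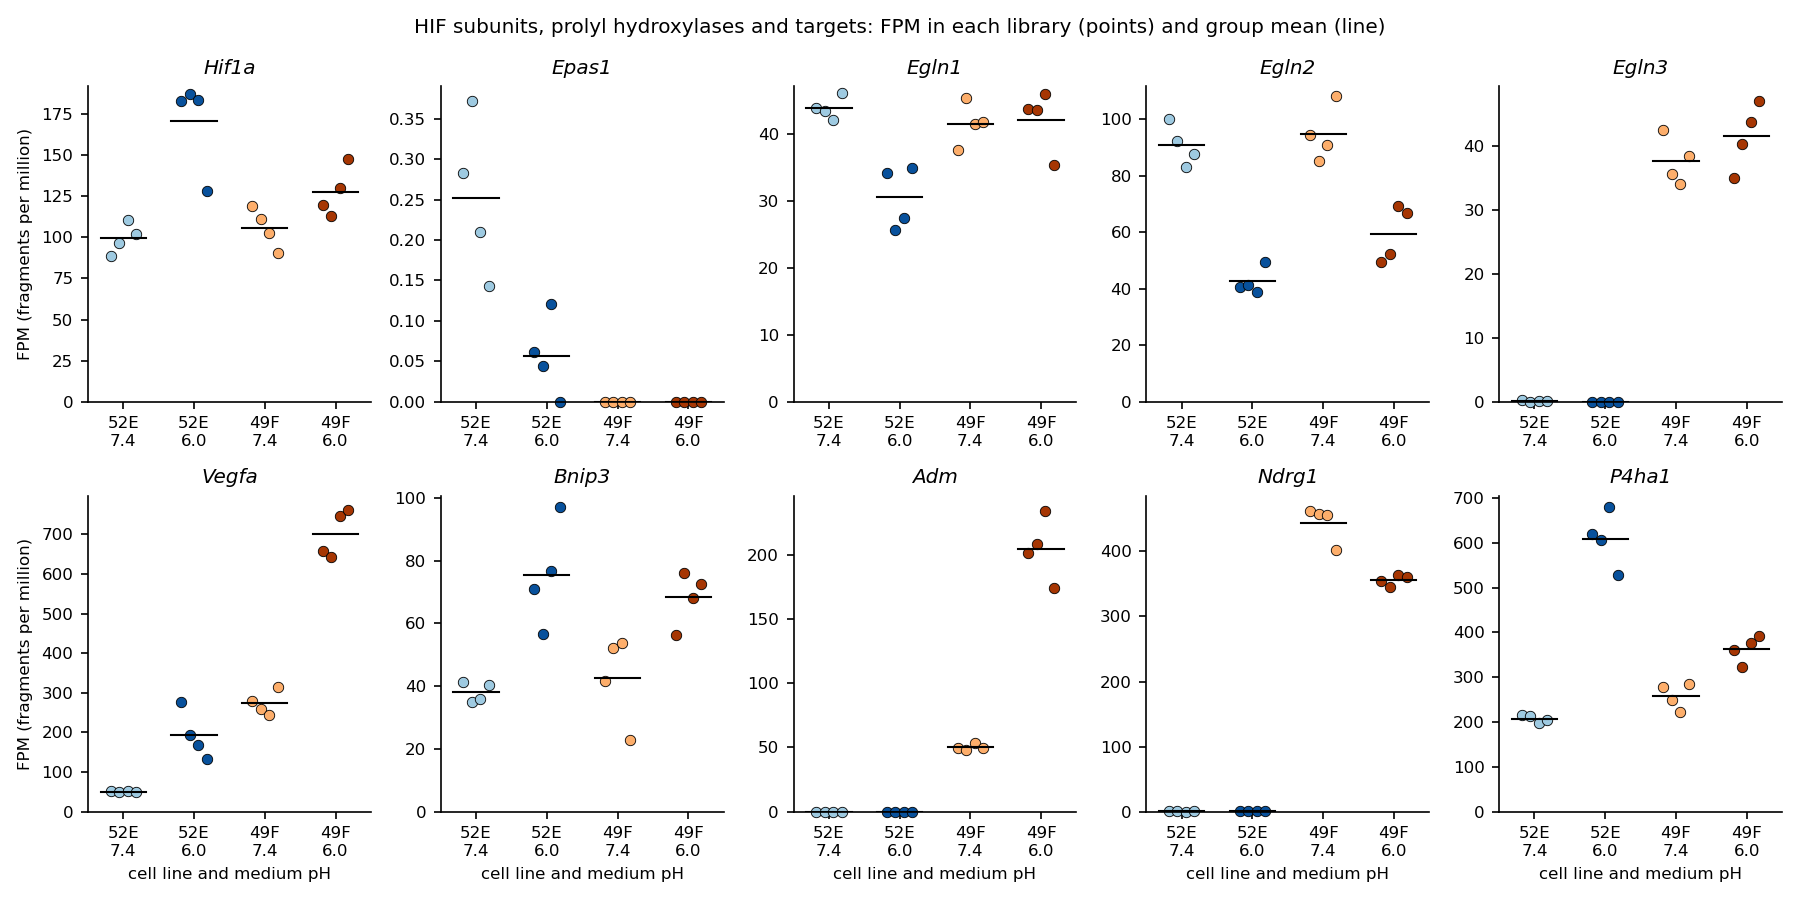
Level of each of the 10 genes in FPM (vertical axis, linear from 0) in the 16 libraries (points) of the 4 groups of cell line and medium pH (horizontal axis), with the group mean as a line. Vegfa lies at 48.6 to 51.9 FPM in NRK-52E at pH 7.4 and at 133 to 277 FPM at pH 6.0, and Adm, Egln3 and Ndrg1 are near 0 in NRK-52E.

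**Figure D2:**
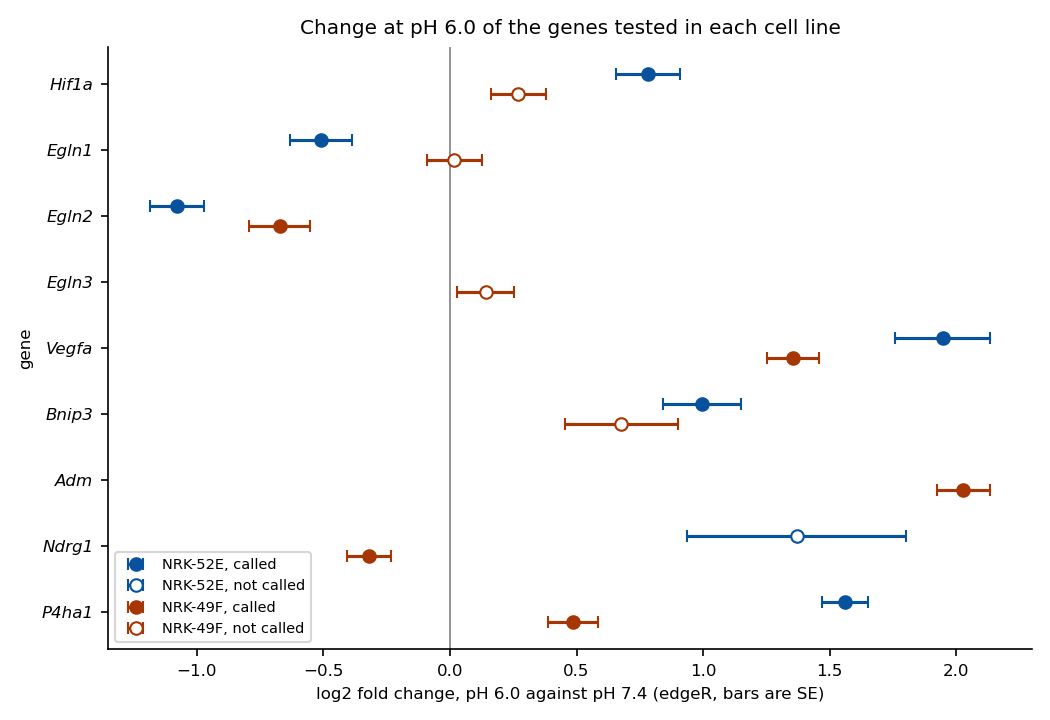
Log2 fold change at pH 6.0 against pH 7.4 (horizontal axis) of each gene tested in NRK-52E (blue) or NRK-49F (brown), with bars for the SE and filled points for called genes. For NRK-52E and then NRK-49F, Vegfa stands at 1.95 and 1.36, and Egln2 at -1.08 and -0.67.

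Hif1a encodes the alpha subunit of HIF-1, the general responder to low oxygen. Its level in NRK-52E was 88.7, 96.5, 110.5 and 102 FPM at pH 7.4 and 183, 187, 184 and 128 FPM at pH 6.0. The groups did not overlap, and the lowest acid library, N8, lay well under the other 3. Hif1a thus rose from 99.5 ± 9.23 FPM to 170.3 ± 28.3 FPM, or a log2 change of 0.78 (SE 0.13), with adjusted p = 0.000246 in edgeR and 4.6e-07 in DESeq2. Without N8 the value was 0.90. Within number 21 the log2 fold change was 0.98, and within number 22, which holds N8, it was 0.56 and not called. In NRK-49F the level was 119, 111, 102 and 90.5 FPM at pH 7.4 and 119.7, 113, 130.0 and 148 FPM at pH 6.0. These groups overlap, since N9 at pH 7.4 is above N12 at pH 6.0. The log2 fold change of 0.27 (SE 0.11) was not called, with adjusted p = 0.0550 in edgeR and 0.0431 in DESeq2 and exact permutation p = 0.0571, and it was 0.031 within number 20 and 0.52 within number 21.

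The pH effect on Hif1a was larger in NRK-52E than in NRK-49F by 0.50 (SE 0.18) on the log2 scale, which was not called (adjusted p = 0.0238 in edgeR and 0.0231 in DESeq2). Without N8 this difference was 0.62 and was called, and within number 21 it was 0.47 and not called. It was 0.26 with library totals and 0.36 without N3, not called in either. At pH 7.4 the lines had 99.5 and 106 FPM of Hif1a, a log2 difference of -0.0017 (SE 0.10) whose sign turned under several alternatives. At pH 6.0 NRK-52E was above NRK-49F by 0.42 (SE 0.14), which was not called (adjusted p = 0.0166 in edgeR and 0.00640 in DESeq2). That difference was called without N8 (0.53), with library totals (0.57), with DESeq2's size factors in edgeR (0.47), in DESeq2 alone (0.46) and with all 16 libraries in one fit (0.42).

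Epas1 encodes the alpha subunit of HIF-2, which in the kidney is best known from interstitial and endothelial cells. In NRK-52E its level was 0.282, 0.372, 0.210 and 0.143 FPM at pH 7.4 and 0.0612, 0.0438, 0.120 and 0 FPM at pH 6.0. These values stand for 23 and 5 fragments in all, so every library was close to the limit of detection. The ratio of pH 7.4 to pH 6.0 was 4.36, with a 95% counting interval from 1.62 to 14.7, and the gene was too low for the edgeR fit. All 8 NRK-49F libraries had 0 fragments of Epas1. A floor of 3 counts over the group stands for 0.0389 FPM in NRK-49F at pH 7.4 and 0.0298 FPM at pH 6.0. The pooled level in NRK-52E was 0.255 FPM at pH 7.4, with a counting interval from 0.162 to 0.383, and 0.0584 FPM at pH 6.0, with an interval from 0.0190 to 0.136 that includes the floor. Between the lines at pH 7.4, DESeq2 gave adjusted p = 0.000865, and edgeR did not test the gene. The lines overlapped at pH 6.0. Epas1 in NRK-49F was therefore not detectable at this depth, and the HIF alpha transcripts of both lines were measured mainly through Hif1a.

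Counts in the lists below are small and stand beside the shares of all tested genes given above. The list of HIF subunits held 5 genes, of which 3 were tested in each line. In NRK-52E, 1 rose, 1 fell and 1 was not called, with a median effect of -0.036 on the log2 scale beside 0.0014 for all tested genes. In NRK-49F, 1 fell and 2 were not called, with a median of 0.23 beside -0.0029. The gene that fell in both was Arnt2, a beta subunit known mainly from neural tissue. It went from 25.4 to 5.60 FPM in the epithelial line, or a log2 change of -2.17 (SE 0.13) with adjusted p = 3.3e-07 in edgeR. In NRK-49F it went from 159 to 43.8 FPM, or a log2 change of -1.86 (SE 0.13) with adjusted p = 5.4e-07 in edgeR. Arnt, the usual partner of both alpha subunits, had -0.035 (SE 0.21) and 0.23 (SE 0.17) and was called in neither line. Hif3a, an alpha subunit with inhibitory forms, was at 0.589 FPM in NRK-52E at pH 7.4, at 0.128 FPM at pH 6.0 and at 0 in NRK-49F, and was not tested.

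Egln2 encodes the hydroxylase PHD1. In NRK-52E its level was 99.9, 92.2, 83.2 and 87.7 FPM at pH 7.4 and 40.6, 41.2, 38.9 and 49.6 FPM at pH 6.0. Every acid library was below every control library, and Egln2 fell from 90.8 ± 7.15 FPM to 42.6 ± 4.76 FPM, or a log2 change of -1.08 (SE 0.11) with adjusted p = 7.0e-06 in edgeR and 3.3e-19 in DESeq2. The value was -1.25 within number 21 and -0.93 within number 22, where it was not called. In NRK-49F the level was 94.3, 85.3, 90.8 and 108 FPM at pH 7.4 and 49.3, 52.2, 69.3 and 66.6 FPM at pH 6.0. Here too the groups did not overlap. The fall was from 94.7 ± 9.77 FPM to 59.4 ± 10.1 FPM, or a log2 change of -0.67 (SE 0.12) with adjusted p = 0.000563 in edgeR and 4.4e-06 in DESeq2, or -0.81 within number 20 and -0.56 (not called) within number 21. Of the 3 hydroxylase genes, Egln2 was the one called lower in both lines.

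The difference between the lines in this pH effect, -0.42 (SE 0.17), was not called (adjusted p = 0.0457 in edgeR and 0.0279 in DESeq2), but was called with library totals (-0.65). Within number 21 it was -0.68, not called. At pH 7.4 the lines had 90.8 and 94.7 FPM of Egln2, and the fitted log2 difference was 0.022 (SE 0.088), not called. Its sign is not that of the means. FPM were scaled over 16 libraries and the fit over 8, and with all 16 in one fit the difference was -0.061. It also turned without N10 (-0.029) or N1 (-0.028), and the cause was not tested. Library totals moved it to a called 0.33, no larger than the shift of all genes. At pH 6.0 Egln2 was lower in NRK-52E by -0.48 (SE 0.14) and was called with adjusted p = 0.00882 in edgeR and 0.00750 in DESeq2, although the groups overlapped (exact permutation p = 0.0571). That call was lost with DESeq2's size factors in edgeR (-0.43), with library totals (-0.33), when genes needed 1 CPM in 4 libraries (-0.47), and without N3 (-0.43), N4 (-0.44), N7 (-0.41), N15 (-0.40) or N16 (-0.43). The call was kept, at a larger difference, with the second number as a covariate (-0.73) and within number 21 (-0.74).

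Egln1 encodes PHD2, the main oxygen sensor of the EGLN family, and is itself a HIF target. In NRK-52E its level was 43.8, 43.4, 42.0 and 46.1 FPM at pH 7.4 and 34.1, 25.7, 27.5 and 34.9 FPM at pH 6.0. The control libraries lay close together and all above the acid ones, of which N4 and N7 were lowest. Egln1 fell from 43.8 ± 1.70 FPM to 30.5 ± 4.64 FPM, or a log2 change of -0.51 (SE 0.12) with adjusted p = 0.00361 in edgeR and 0.000315 in DESeq2. The call was lost without N7 (-0.45) or without N2 (-0.52), and the values within number 21 (-0.56) and number 22 (-0.48) were not called. In NRK-49F the level was 37.5, 45.3, 41.4 and 41.7 FPM at pH 7.4 and 43.6, 43.5, 45.9 and 35.3 FPM at pH 6.0. The groups overlap there, and the log2 fold change of 0.017 (SE 0.11) was not called, with adjusted p = 0.904 in edgeR. It was 0.086 within number 20 and -0.039 within number 21.

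The pH effect on Egln1 was lower in NRK-52E than in NRK-49F by -0.54 (SE 0.16), which was called with adjusted p = 0.00934 in edgeR and 0.00253 in DESeq2. This call rested on most single libraries. It was lost without N1 (-0.55), N2 (-0.55), N4 (-0.47), N5 (-0.57), N6 (-0.52), N7 (-0.49), N9 (-0.50), N11 (-0.53), N12 (-0.53), N13 (-0.54), N14 (-0.55) or N15 (-0.50), and also without a filter on low counts (-0.53) and with the second number as a covariate (-0.54). Within number 21 it was -0.52 and not called (adjusted p = 0.150 in edgeR and 0.192 in DESeq2). Between the lines, Egln1 had a log2 difference of 0.16 (SE 0.083) at pH 7.4 and of -0.46 (SE 0.14) at pH 6.0, and neither was called. Library totals made the first a called 0.47. The second was called with all 16 libraries in one fit (-0.46) and without N8 (-0.53) or N16 (-0.55).

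Egln3 encodes PHD3, a hydroxylase strongly induced by HIF in many cells. In NRK-49F its level was 42.5, 35.5, 34.1 and 38.4 FPM at pH 7.4 and 34.9, 40.2, 43.7 and 47.0 FPM at pH 6.0. The groups overlap, and the log2 fold change of 0.14 (SE 0.11) was not called (adjusted p = 0.308 in edgeR and 0.330 in DESeq2). It was -0.039 within number 20 and 0.32 within number 21. In NRK-52E the level was 0.282, 0, 0.126 and 0.0956 FPM at pH 7.4, from 11 fragments, and 0 in all 4 libraries at pH 6.0. The pooled level at pH 7.4 was 0.122 FPM, with a counting interval from 0.0609 to 0.218, and the floor of 3 counts at pH 6.0 stands for 0.0351 FPM. The groups overlap, since N2 was at 0, and all these libraries were close to the detection limit. NRK-49F had 309.6 times the level of NRK-52E at pH 7.4, with a counting interval from 173 to 621, and at least 1205-fold more at pH 6.0. Both differences were called, though Egln3 passed the filter on low counts there only through NRK-49F. In NRK-52E the ratio of pH 7.4 to pH 6.0 was at least 3.48, but it rests on 11 against 0 fragments and overlapping groups. Egln3 was too low there for the edgeR fit, so its difference in pH effect between the lines is not read.

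The list of oxygen-dependent control held 11 genes, among them Egln1, Egln2 and Egln3 with the VHL ligase and the asparaginyl hydroxylase. In NRK-52E, 3 of 9 tested genes rose, 2 fell and 4 were not called, with a median effect of 0.027. The falls were Egln1 and Egln2, and the 7 tested genes without the EGLN genes had 3 rises, 0 falls and a median of 0.495. The 3 that rose were Vhl, which encodes the substrate receptor of the ligase, its adaptor gene Elob, and Siah2, whose product ubiquitinates EGLN enzymes. Vhl went from 145 to 311 FPM, or a log2 change of 1.11 (SE 0.091) with adjusted p = 2.0e-06 in edgeR, and Elob changed by 1.02 (SE 0.18) with adjusted p = 0.000459. In NRK-49F, 2 of 10 tested genes rose, 1 fell (Egln2) and 7 were not called, with a median of 0.11. Without the EGLN genes, 2 of 7 rose and 0 fell, with a median of 0.19. Siah2 rose there as well, by 0.95 (SE 0.19) after 0.99 (SE 0.13) in NRK-52E, and the other gene was the ligase RING subunit gene Rbx1 at 0.63 (SE 0.12). Vhl in NRK-49F had 0.19 (SE 0.086) and Elob -0.27 (SE 0.13), and neither was called. The pH effect differed between the lines for Vhl by 0.91 (SE 0.12) (edgeR adjusted p = 9.3e-06) and for Elob by 1.27 (SE 0.23) (edgeR adjusted p = 0.000207). Within number 21 that of Elob was 1.21 and not called.

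The list of HIF co-regulators held 4 genes. In NRK-52E, 1 of 3 tested fell and 2 were not called, with a median effect of -0.40. The gene that fell was Cited2, whose product competes with HIF for its co-activators, at -1.13 (SE 0.11) with adjusted p = 4.7e-06 in edgeR, against -0.29 (SE 0.18), not called, in NRK-49F and a called difference of -0.85 between the lines. In NRK-52E its change without N8 was -1.23 and was called. In NRK-49F it ran from -0.13 to -0.46 with each library left out, and was -0.049 within number 20 and -0.60 within number 21, not called in any. Within number 21 the difference between the lines was -0.66 and not called. In NRK-49F, 2 of 4 rose, 1 fell and 1 was not called, with a median of 0.47. Cited4 rose from 0.461 to 4.58 FPM, or a log2 change of 3.34 (SE 0.33), and had 0 counts in all 8 NRK-52E libraries. The co-activator gene Ep300 changed by 1.24 (SE 0.31) and its relative Crebbp by -0.54 (SE 0.12). The call of Ep300 was lost with all 16 libraries in one fit (1.24), and without N9 (1.30), N12 (1.0998), N13 (1.11), N14 (1.02) or N16 (1.21).

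Among the targets, Vegfa encodes the growth factor that drives blood vessel growth. Its level in NRK-52E was 51.3, 48.6, 51.9 and 49.5 FPM at pH 7.4 and 277, 193, 167 and 133 FPM at pH 6.0. The controls were nearly equal, the acid libraries spread over a wide range with N3 highest and N8 lowest, and all of them lay above the controls. Vegfa rose from 50.3 ± 1.517 FPM to 193 ± 61.5 FPM, 3.85-fold, with a log2 fold change of 1.95 (SE 0.19) and adjusted p = 5.8e-06 in edgeR and 2.8e-20 in DESeq2. It was 2.22 within number 21 and 1.58 within number 22, both called, and 2.09 without N8. In NRK-49F the level was 280.1, 259, 243 and 315 FPM at pH 7.4 and 658, 642, 747 and 762 FPM at pH 6.0. The groups were far apart, and Vegfa rose 2.56-fold, with a log2 fold change of 1.36 (SE 0.10) and adjusted p = 1.0e-06 in edgeR and 1.8e-35 in DESeq2. It was 1.29 within number 20 and 1.43 within number 21, both called.

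The order of the Vegfa levels was NRK-52E at pH 7.4, NRK-52E at pH 6.0, NRK-49F at pH 7.4 and NRK-49F at pH 6.0. The highest acid NRK-52E library, N3, reached into the range of NRK-49F at pH 7.4. At equal pH the fibroblasts had more, with log2 differences of -2.36 (SE 0.088) at pH 7.4 (adjusted p = 5.4e-10 in edgeR and 1.7e-141 in DESeq2) and -1.86 (SE 0.19) at pH 6.0 (adjusted p = 3.1e-06 in edgeR and 2.7e-18 in DESeq2). The pH effect was larger in NRK-52E by 0.58 (SE 0.22), which was not called (adjusted p = 0.0360 in edgeR and 0.0324 in DESeq2). This difference was called without N8 (0.72) and was 0.25 without N3. Within number 21 it was 0.80, not called.

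P4ha1 encodes the catalytic subunit of the hydroxylase that matures collagen. In NRK-52E its level was 216, 213, 199 and 204 FPM at pH 7.4 and 619.8, 606, 681 and 529 FPM at pH 6.0. All acid libraries exceeded every control library, and P4ha1 rose from 208 ± 7.87 FPM to 609 ± 62.6 FPM, 2.95-fold, with a log2 fold change of 1.56 (SE 0.091) and adjusted p = 2.6e-07 in edgeR and 9.6e-54 in DESeq2. It was 1.50 within number 21 and 1.60 within number 22, both called. In NRK-49F the level was 279, 248, 223 and 285 FPM at pH 7.4 and 360.2, 322, 376 and 392 FPM at pH 6.0. The groups did not overlap, and the rise was 1.40-fold, with a log2 fold change of 0.49 (SE 0.10) and adjusted p = 0.00139 in edgeR and 1.6e-05 in DESeq2. It was 0.39 (called) within number 20 and 0.59 (not called) within number 21.

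P4ha1 was a gene whose pH effect differed between the lines, by 1.06 (SE 0.14), with adjusted p = 8.1e-06 in edgeR and 1.6e-13 in DESeq2. Within number 21 it was 0.92 and not called (adjusted p = 0.0102 in edgeR and 0.000313 in DESeq2). At pH 7.4 NRK-52E was below NRK-49F by -0.23 (SE 0.084), not called (adjusted p = 0.0250 in edgeR and 0.0167 in DESeq2), though called without N13 (-0.30) and turned to 0.071 with library totals. At pH 6.0 NRK-52E was above NRK-49F by 0.75 (SE 0.12), called with adjusted p = 8.9e-05 in edgeR and 1.1e-10 in DESeq2, and these groups did not overlap.

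Bnip3 encodes a mitophagy receptor of the outer mitochondrial membrane. In NRK-52E its level was 41.1, 35.1, 36.0 and 40.4 FPM at pH 7.4 and 70.9, 56.6, 76.8 and 96.9 FPM at pH 6.0. N8 was the highest acid library for this gene, whereas it was the lowest for Hif1a, Vegfa and P4ha1. The groups did not overlap, and Bnip3 rose 1.99-fold, with a log2 fold change of 0.996 (SE 0.15) and adjusted p = 0.000189 in edgeR and 2.3e-08 in DESeq2, or 0.84 without N8. It was 0.73 within number 21 and 1.202 within number 22, both called. In NRK-49F the level was 41.7, 52.3, 53.9 and 22.8 FPM at pH 7.4 and 56.2, 75.9, 68.2 and 72.5 FPM at pH 6.0. Every acid library was above the controls, among which N14 was low. The log2 fold change of 0.68 (SE 0.22) was not called, since only DESeq2 passed the threshold (adjusted p = 0.0220 in edgeR and 0.00529 in DESeq2). It was called in DESeq2 alone (0.69), without a filter on low counts (0.69) and without N13 (0.82), and was 0.50 within number 20 and 0.88 within number 21, neither called. The pH effects of the lines differed by 0.30 (SE 0.29), not called (edgeR adjusted p = 0.402), and by -0.15 within number 21, not called either. Between the lines Bnip3 had -0.074 (SE 0.22) at pH 7.4 and 0.15 (SE 0.16) at pH 6.0, neither called, and the sign of each turned under several alternatives.

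Adm encodes adrenomedullin, a vasodilator peptide. In NRK-49F its level was 49.5, 48.0, 53.6 and 49.4 FPM at pH 7.4 and 201, 208, 234 and 174 FPM at pH 6.0. The pH groups were far apart. Adm rose 4.08-fold, with a log2 fold change of 2.03 (SE 0.10) and adjusted p = 6.6e-08 in edgeR and 2.5e-69 in DESeq2, the largest change at pH 6.0 among the 9 genes tested in this line. It was 2.09 within number 20 and 1.98 within number 21, both called. In NRK-52E, Adm had 3 fragments in N1 and 0 in the other 7 libraries. NRK-49F had 1500.0 times the level of NRK-52E at pH 7.4, with a counting interval from 513 to 7278, and at least 5816-fold more at pH 6.0, and both differences were called. Adm passed the filter on low counts there only through NRK-49F, so these calls add nothing to the fragment counts. Whether the pH effect on Adm differs between the lines could not be measured, since NRK-52E had next to no transcript.

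Ndrg1 encodes a stress-responsive cytoplasmic protein named for its repression by N-myc. In NRK-49F its level was 462, 457, 455 and 402 FPM at pH 7.4 and 354, 346, 363 and 360.2 FPM at pH 6.0. The acid libraries were all lower, though N14 at pH 7.4 came near them. Ndrg1 fell from 444 ± 28.1 FPM to 356 ± 7.69 FPM, or a log2 change of -0.32 (SE 0.087) with adjusted p = 0.00817 in edgeR and 0.000575 in DESeq2, or -0.38 (called) within number 20 and -0.25 (not called) within number 21. Among Vegfa, Bnip3, Adm, Ndrg1 and P4ha1 it was the one called lower in this line. In the wider list of targets below, Bnip3l, Lox, Edn1 and Flt1 were also called lower. The call of Ndrg1 was lost with all 16 libraries in one fit (-0.32), with library totals (-0.28), without a filter on low counts (-0.31), and without N9 (-0.31), N10 (-0.30), N11 (-0.32), N12 (-0.31), N13 (-0.30), N15 (-0.32) or N16 (-0.32).

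In NRK-52E, Ndrg1 was at 0.330, 0.372, 0.168 and 0.335 FPM at pH 7.4 and 0.673, 0.570, 0.522 and 1.35 FPM at pH 6.0. These stand for 27 and 66 fragments, the groups did not overlap, and N8 was highest. The ratio of pH 6.0 to pH 7.4 was 2.58, with a counting interval from 1.62 to 4.20, and the fitted log2 fold change of 1.37 (SE 0.43) was not called (adjusted p = 0.0154 in edgeR and 0.0240 in DESeq2). It was 0.95 without N8, 0.79 within number 21 and 1.90 within number 22, and was called with all 16 libraries in one fit (1.35). The difference in pH effect between the lines was 1.67 (SE 0.33) and was called (adjusted p = 0.000465 in edgeR and 1.1e-05 in DESeq2). Within number 21 it was 1.04 and not called (adjusted p = 0.0706 in edgeR and 0.0988 in DESeq2). NRK-49F had 1470.0 times the level of NRK-52E at pH 7.4 (interval 1010.0 to 2231) and 464 times at pH 6.0 (interval 364 to 599.5), and both differences were called. Relative to NRK-49F, Ndrg1 in NRK-52E stood at 0.0678% and 0.219% at pH 7.4 and pH 6.0, which is below Pdgfra (0.0731%), Col1a1 and Fn1 at pH 7.4 and close to Col1a1 (0.215%) but above Pdgfra (0.0152%) at pH 6.0. At pH 7.4 Adm stood at 0.0705%, also below these markers, and Egln3 at 0.335%, between Pdgfra and Col1a1, and both had 0 fragments in NRK-52E at pH 6.0. Pdgfra, Col1a1 and Fn1 were chosen for this after their low levels in NRK-52E were seen. Col3a1, Vim and Pdgfrb of the same marker list were not that low there at pH 7.4. What the low levels stem from was not tested.

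Wider lists of HIF targets held genes called in either direction. Of 37 targets outside glycolysis, 30 were tested in NRK-52E, and 9 rose, 11 fell and 10 were not called, where 28.2% of all tested genes were called higher and 28.5% lower. Their median effect on the log2 scale was -0.030, beside 0.0014 for all tested genes, and -0.14 for the 25 tested genes other than the 10 followed above. In NRK-49F, 35 were tested, and 8 rose, 5 fell and 22 were not called, against 18.4% and 19.4% of all tested genes, with a median of 0.052 beside -0.0029, and of 0.038 without those 10. Vegfa, P4ha1, the circadian repressor gene Bhlhe40 and the disulfide oxidase gene Ero1a rose in both lines. Bnip3l, the collagen cross-linker gene Lox and the endothelin gene Edn1 fell in both. The glycogen branching gene Gbe1 fell in NRK-52E and rose in NRK-49F.

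The largest rises of this list in NRK-52E were Stc2, which encodes a stanniocalcin hormone (2.41 (SE 0.26)), the mTORC1 inhibitor gene Ddit4 (2.39 (SE 0.20)) and Vegfa. Neither Stc2 (0.041 (SE 0.28)) nor Ddit4 (-0.049 (SE 0.12)) was called in NRK-49F, and the pH effects differed by 2.36 and 2.43, both called. The largest falls in NRK-52E were the transferrin receptor gene Tfrc (-2.74 (SE 0.094)), the carbonic anhydrase gene Ca9 (-1.74 (SE 0.18)) and the collagen lysyl hydroxylase gene Plod1 (-1.26 (SE 0.084)). None of these 3 was called in NRK-49F, and the differences in pH effect of -2.79, -2.22 and -1.34 were called. Ca9, which is known as a marker of hypoxia, went in NRK-52E from 979 FPM to 289.6, and in NRK-49F from 172 FPM to 237. The change in NRK-49F, 0.47 (SE 0.15), was called in DESeq2 alone (0.47), without a filter on low counts (0.48), with the second number as a covariate (0.44) and without N11 (0.58). It was 0.23 within number 20, 0.66 within number 21 and 0.29 without N16, not called in any. In NRK-52E the change of Ca9 without N8 was -1.98 and was called.

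In NRK-49F the largest rises of the list were Ero1a (2.14 (SE 0.15)), Adm and the adenylate kinase gene Ak4 (1.69 (SE 0.27)). Ero1a rose in NRK-52E as well (1.51 (SE 0.15)), and the effects of the lines were not called as different (-0.64, edgeR adjusted p = 0.0231), though they were with library totals (-0.88) and without N11 (-0.76). Ak4 had -0.086 (SE 0.24) in NRK-52E and a called difference of -1.79, which was -1.60 and not called within number 21. The largest falls in NRK-49F were Edn1 (-2.88 (SE 0.35), from 1.70 to 0.221 FPM), Lox (-1.95 (SE 0.23), from 439 to 113 FPM) and the VEGF receptor gene Flt1 (-1.73 (SE 0.44), below 1 FPM at either pH). Flt1 lost its call without any 1 of the 8 NRK-49F libraries, with values from -1.41 without N15 to -1.97 without N11, and under library totals (-1.69), no filter (-1.69), the number as covariate (-1.73) and one fit of 16 libraries (-1.73).

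**Figure D3:**
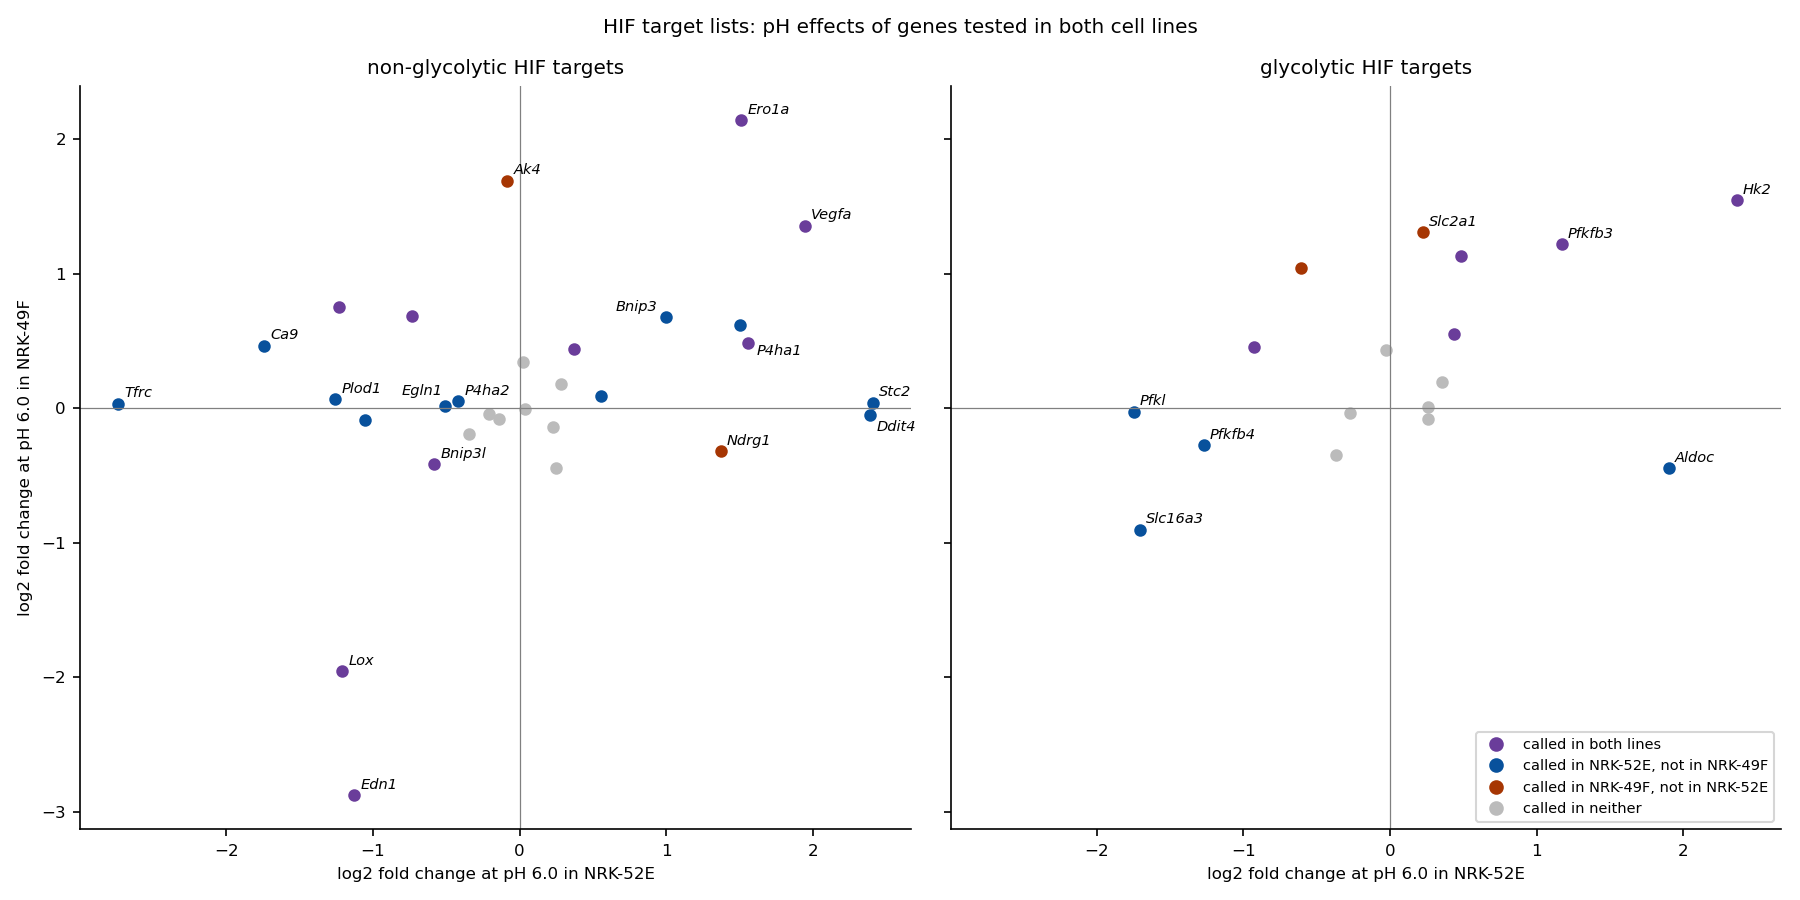
Log2 fold change at pH 6.0 in NRK-52E (horizontal axis) and in NRK-49F (vertical axis) of listed HIF targets tested in both lines, outside glycolysis (left) and in glycolysis (right), with points coloured by the line in which the gene was called and names for some of the called genes. Vegfa (1.95 and 1.36) and Hk2 (2.37 and 1.54) lie high in both lines, and Tfrc (-2.74 and 0.034) lies low in NRK-52E.

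Of 19 glycolytic targets, 18 were in the table. In NRK-52E, 17 were tested, and 5 rose, 4 fell and 8 were not called, with a median effect of 0.23. In NRK-49F, 7 of 18 rose and the other 11 were not called, with a median of 0.31. Of all tested genes, 28.2% were called higher in NRK-52E, against 18.4% for the other line. In NRK-49F hexokinase Hk2 rose by 1.54 (SE 0.13). The rise in NRK-52E was 2.37 (SE 0.18), which exceeded it by 0.81 (SE 0.23), which was called. This call was lost when any 1 of 12 libraries was left out, of 16 in all, with values from 0.63 without N3 to 0.81 without N11, with library totals (0.58), with the second number as a covariate (0.79) and within number 21 (0.88). Pfkfb3, a regulator of glycolytic flux, rose by 1.17 (SE 0.10) and 1.22 (SE 0.13). The glucose transporter gene Slc2a1 rose in NRK-49F by 1.31 (SE 0.12) and had 0.23 (SE 0.11), not called, in NRK-52E, with a called difference of -1.09. In NRK-52E the aldolase gene Aldoc rose by 1.90 (SE 0.27), and the largest falls were phosphofructokinase Pfkl (-1.75 (SE 0.17)), the lactate exporter Slc16a3 (-1.71 (SE 0.27)) and Pfkfb4 (-1.27 (SE 0.26)). Pgam1 and Pdk1 also rose in both lines.

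The families around the targets were small, and their counts stand beside 28.2% of all tested genes called higher and 28.5% lower in NRK-52E, and 18.4% and 19.4% in NRK-49F. Nothing particular to a family is read from them. Of 10 genes of the VEGF family and its receptors, 8 were tested in NRK-52E, where 3 rose, 4 fell and 1 was not called, with a median effect of -0.39. In NRK-49F, 1 of 8 rose (Vegfa), 3 fell and 4 were not called, with a median of -0.18. Vegfd, a lymphatic growth factor gene, rose in NRK-52E by 2.11 (SE 0.24) and had 0.21 (SE 0.23) in NRK-49F, a called difference of 1.89. The VEGF co-receptor gene Nrp2 fell in both, by -2.11 (SE 0.14) and -1.17 (SE 0.12), and so did Vegfc, by -0.64 (SE 0.16) and -0.71 (SE 0.090). Nrp1 fell in NRK-52E by -1.08 (SE 0.25) and had -0.18 (SE 0.19), not called, in NRK-49F, where it was -0.71 and called within number 20 but 0.35 and not called within number 21. The receptor gene Flt4, at 0.292 and 0.972 FPM, rose in NRK-52E by 1.70 (SE 0.45). In NRK-52E the call of Vegfc was lost without N1 (-0.58), N2 (-0.61) or N7 (-0.54), that of Nrp1 without N3 (-0.98), N5 (-1.002) or N6 (-0.96), and that of Flt4 without N1 (1.41), N3 (1.70), N4 (1.42), N5 (1.60) or N6 (1.67), with library totals (1.50) and with one fit of 16 libraries (1.69).

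Adm rose in NRK-49F while genes of its receptor fell. The adrenomedullin list held 6 genes, of which 5 were tested in NRK-49F, where 1 rose, 3 fell and 1 was not called, with a median effect of -0.65. The receptor gene Calcrl fell from 5.14 to 1.61 FPM (-1.66 (SE 0.29)), and its partners Ramp3 (-2.20 (SE 0.35)) and Ramp2 (-0.65 (SE 0.14)) fell as well, the last not called with all 16 libraries in one fit (-0.65). In NRK-52E, Calcrl had 0 counts in all libraries, and 2 genes of the list were tested. Ramp3 fell by -1.70 (SE 0.32), and Ramp2 (-1.61 (SE 0.51)) was not called, though it was without N8 (-2.30), with library totals (-1.82) and with one fit of 16 libraries (-1.63). The median of these 2 genes was -1.66.

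All 4 genes of the NDRG family were tested. In NRK-52E, 1 rose and 3 were not called, with a median effect of 0.85, and the gene that rose was Ndrg3, from 7.55 to 29.2 FPM (1.96 (SE 0.17)). In NRK-49F, Ndrg1 fell and 3 were not called, with a median of -0.081, and Ndrg3 had 0.29 (SE 0.19), a called difference of 1.66 between the lines. Of the 4 collagen prolyl 4-hydroxylase genes, 2 rose and 2 fell in NRK-52E, with a median of 0.057, and 2 rose and 2 were not called in NRK-49F, with a median of 0.33. The beta subunit gene P4hb rose with P4ha1 in both lines (0.53 (SE 0.10) and 0.42 (SE 0.10)). The other catalytic genes P4ha3 (-0.91 (SE 0.18)) and P4ha2 (-0.42 (SE 0.10)) fell in NRK-52E, opposite to P4ha1, and were not called in NRK-49F (0.24 and 0.052), with called differences of -1.17 and -0.48. That of P4ha2 was not called without a filter on low counts (-0.47) or within number 21 (-0.64). P4ha2 lost its call in NRK-52E without N1 (-0.41), N2 (-0.43), N3 (-0.37) or N7 (-0.38), and P4hb in NRK-49F without N9 (0.40), N10 (0.39), N11 (0.37), N12 (0.41) or N15 (0.43).

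Of 5 genes for mitophagy receptors and their kinase, 4 were in the table. In NRK-52E, 2 rose, 1 fell and 1 was not called, with a median effect of 0.28, and in NRK-49F 1 fell and 3 were not called, with a median of -0.050. Bnip3l, the close relative of Bnip3, fell in both lines, in NRK-52E from 163 FPM to 108 (-0.58 (SE 0.11)), and in NRK-49F from 179 FPM to 134 (-0.42 (SE 0.10)). Without N8 the change of Bnip3l in NRK-52E was -0.70 and was called. The pair thus went opposite ways in NRK-52E. The kinase gene Pink1 rose in NRK-52E by 0.44 (SE 0.11) and had -0.12 (SE 0.11) in NRK-49F, a called difference of 0.54. The call of this difference was lost when any 1 of 11 libraries was left out, of 16 in all, with values from 0.45 without N16 to 0.57 without N6, with library totals (0.30) and within number 21 (0.53). In NRK-49F the call of Bnip3l was lost without N10 (-0.41), N11 (-0.38), N12 (-0.39) or N15 (-0.40), and in NRK-52E that of Pink1 without N2 (0.41), N4 (0.44), N5 (0.35) or N6 (0.45) and with library totals (0.23).

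Calls of listed genes for pH were also lost within a number, where a fit has 4 libraries. In NRK-52E this held within number 21 for Elob (0.78), Flt4 (1.88), Nrp1 (-0.88), P4hb (0.48), Pfkfb4 (-1.41), Pink1 (0.30) and Slc16a3 (-2.03). Within number 22 it held for Bnip3l (-0.46), Ca9 (-1.48), Edn1 (-0.90), Flt4 (1.44), Lox (-1.01), Nrp1 (-1.24), P4ha2 (-0.29), P4ha3 (-0.68), P4hb (0.56), Pfkfb4 (-1.15), Pink1 (0.56), Ramp3 (-1.17), Siah2 (1.02), Slc16a3 (-1.46) and Vegfc (-0.43). In NRK-49F it held within number 20 for Ep300 (0.86) and Flt1 (-1.21), and within number 21 for Ak4 (1.47), Bnip3l (-0.28), Calcrl (-1.54), Crebbp (-0.50), Edn1 (-2.55), Flt1 (-2.25), P4hb (0.27), Ramp2 (-0.56), Ramp3 (-1.88), Rbx1 (0.64) and Siah2 (0.65). The log2 fold changes in parentheses kept the direction of the pooled values.

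Patterns over the 16 libraries were compared with those of 8948 genes of at least 10 FPM by Pearson's r and Spearman's rho of log2(FPM + 1). The points fall into 4 groups, so a high r largely restates the group means, and the values are a description. The 3 genes most like Hif1a by r were Api5 (r = 0.963, rho = 0.974), Lnpk and Pikfyve. Closest to Vegfa were Slc20a1 (r = 0.991, rho = 0.965), Sfxn1 and Ier5, and closest to P4ha1 were Polh (r = 0.983, rho = 0.962), Kmt5c and Srrm1. Bnip3 was most like Ndufab1 (r = 0.927, rho = 0.956), Cmpk1 and Med21. For the hydroxylase genes, Egln2 went with Nfatc4 (r = 0.976, rho = 0.941), Zfp513 and Lancl2, while Egln1 had its nearest patterns in Samd1 (r = 0.917, rho = 0.750), Cd3eap and Pfkl. Among the genes high in NRK-49F, Egln3 went with Tox (r = 0.999, rho = 0.885), Vcan and Trim2, Ndrg1 with Ctsf (r = 0.999, rho = 0.844), Apbb1ip and Fgfr2, and Adm with Sox9 (r = 0.998, rho = 0.945), Cd68 and Lhfpl2. The neighbours depend on the measure. Of the 3 nearest genes by rho, 1 was also among the 3 by r for Hif1a, Vegfa and Bnip3, and 0 for Egln1, Egln2, Egln3, Ndrg1, P4ha1 and Adm. None of the 10 genes was among the 3 nearest genes of another, and Epas1 was too low to be compared.

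HIFs bind a short core in DNA, so the 250 bases before the start of each gene were searched for ACGTG or GCGTG on either strand (CACGT or CACGC where the core is on the other strand), in RefSeq promoters of the rat build GRCr8. Of the 10 genes, 9 were matched with 10 windows, and Ndrg1 was not matched. The core was found in 4 of the 10 windows (40.0%), beside 36.7% of 33469 windows of all genes and 55.6% of 9756 windows of genes tested in both lines. The share lay between these backgrounds. Hif1a (chr6:98359648-98359897, plus strand) had 3 matches from positions -229, -228 and -164 relative to the start, of which the first 2 are the same letters CACGTG read on both strands. Bnip3 (chr1:203154963-203155212, minus strand) had 4 from -108, -99, -98 and -90, P4ha1 (chr20:27844796-27845045, plus strand) had 2 from -136 and -99, and Egln1 (chr19:69804682-69804931, minus strand) had 1 from -56. The Bnip3 matches from -99 and -98 are likewise the same letters CACGTG read on both strands. The windows of Vegfa, Adm, Egln2, Egln3 and Epas1 had 0, which says only that these letters are not in these windows. A match is a description of the sequence and not a bound site. The windows with a core are shown. Their 4 genes were called in NRK-52E at pH 6.0, Hif1a, Bnip3 and P4ha1 as higher and Egln1 as lower. Vegfa (higher) and Egln2 (lower) were also called there, and their windows had 0 matches. Capitals mark the core, and sequences run 5′ to 3′ on the strand of the gene.
Hif1a: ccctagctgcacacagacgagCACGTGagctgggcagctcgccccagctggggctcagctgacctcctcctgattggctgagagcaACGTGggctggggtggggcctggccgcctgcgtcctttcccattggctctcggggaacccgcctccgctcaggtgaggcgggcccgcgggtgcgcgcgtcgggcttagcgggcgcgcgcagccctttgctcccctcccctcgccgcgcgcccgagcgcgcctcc
Bnip3: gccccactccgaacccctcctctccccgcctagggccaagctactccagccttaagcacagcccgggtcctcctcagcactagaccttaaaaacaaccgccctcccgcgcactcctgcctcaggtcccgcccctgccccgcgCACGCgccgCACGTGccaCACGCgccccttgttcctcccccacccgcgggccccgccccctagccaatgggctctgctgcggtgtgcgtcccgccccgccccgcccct
P4ha1: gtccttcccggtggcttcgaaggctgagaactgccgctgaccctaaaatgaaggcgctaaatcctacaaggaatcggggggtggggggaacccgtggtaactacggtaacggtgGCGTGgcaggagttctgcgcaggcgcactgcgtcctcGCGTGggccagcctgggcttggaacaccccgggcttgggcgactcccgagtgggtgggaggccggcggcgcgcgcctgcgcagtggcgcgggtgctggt
Egln1: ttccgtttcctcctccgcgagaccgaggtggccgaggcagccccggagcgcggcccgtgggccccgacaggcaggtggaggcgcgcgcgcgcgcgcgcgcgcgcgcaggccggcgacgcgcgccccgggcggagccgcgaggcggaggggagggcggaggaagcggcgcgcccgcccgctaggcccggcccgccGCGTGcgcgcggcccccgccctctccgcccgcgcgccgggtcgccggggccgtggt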

How the data were processed

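Poly(A) RNA of 16 libraries was sequenced as read pairs of 2 × 150 bp. For alignment of the reads to rn6, the rat assembly, the paper names tophat2 and the submitters' processing notes name HISAT2 2.1.0. The authors counted fragments over exons with featureCounts, multi-mapping fragments included. The deposited values are raw counts per gene without normalization, and a count summed over genes gave the depth of a library. FPM were computed in edgeR with TMM factors over the 16 libraries. Comparisons were fitted in R 4.3.3 with edgeR 4.0.16 (quasi-likelihood test, TMM, filterByExpr) and DESeq2 1.42.0 (Wald test), on the 8 libraries compared, and the interaction of cell line and pH on all 16. The fits were tested on simulated data. Floors were 3 counts over a group, and ratios of low counts had 95% intervals. The genes named are the 10 members, the 3 called genes that rose most and the 3 that fell most in each gene list and line, the cell type markers, and the 3 genes most like each member. Arnt, Hif3a, Bhlhe40, Gbe1, Pgam1 and Pdk1 were named after their values were seen. Pdgfra, Col1a1 and Fn1 were set beside Adm, Egln3 and Ndrg1 after their low levels in NRK-52E were seen. The lists were HIF subunits, oxygen-dependent control, co-regulators, targets outside and in glycolysis, the VEGF, adrenomedullin, NDRG and collagen prolyl 4-hydroxylase families, mitophagy receptors, and markers of epithelium, proximal tubule, fibroblasts, endothelium and leukocytes. Members and lists were chosen with earlier results of these data known. Alternatives were library totals or DESeq2's size factors, other filters on low counts, each tool alone, an adjusted p below 0.05, all 16 libraries in one fit, the second number of the column names as a covariate or alone, and each library left out in turn. Within a group no libraries were copies of one another, since the closest pair, N2 and N6, differed by a chi-square of 6.12 per degree of freedom. This is set against counting error and does not show separate cultures. No library was left out of the reported values. The listed genes Gapdh, Col1a2 and Pecam1 and all protein sequences were not analysed here. Some listed genes are not reported here.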

Additional observations from a re-analysis of the deposited data

Results flagged for a closer look

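Groups of 4 libraries were searched for a value far from the other 3, by its gap to the nearest of them relative to the range of the group. Of 192 groups of values over 50 genes, 19 held such a value. The threshold gives about 1 in 20 groups for independent normal values. The genes share their libraries, so the 19 groups cannot be judged against that rate. Flt1 in N8, Adm in N1 and Flt4 in N16 are counted but stood apart by construction, since the others were at 0. Library N8 (NRK-52E, pH 6.0) stood apart for Hif1a at 128 FPM with the others from 183 to 187, Rbx1 at 152 FPM with the others from 83.1 to 89.5, Cited2 at 49.2 FPM with the others from 38.2 to 39.8, Ca9 at 418 FPM with the others from 240.3 to 255, Flt1 at 0.0465 FPM with the others at 0 and Bnip3l at 131 FPM with the others from 99.5 to 99.9. Library N1 (NRK-52E, pH 7.4) stood apart for Adm at 0.141 FPM with the others at 0, Ca9 at 1115 FPM with the others from 923 to 941, Edn1 at 26.1 FPM with the others from 21.4 to 22.2 and Pfkl at 116 FPM with the others from 105 to 106. Library N14 (NRK-49F, pH 7.4) stood apart for Ndrg1 at 402 FPM with the others from 455 to 462 and Cited2 at 126 FPM with the others from 150.3 to 154. Library N13 (NRK-49F, pH 7.4) stood apart for Stc2 at 9.13 FPM with the others from 19.5 to 20.4 and Aldoc at 6.55 FPM with the others from 4.39 to 4.54. Library N10 (NRK-49F, pH 7.4) stood apart for Ca9 at 152 FPM with the others from 175 to 179.9. Library N16 (NRK-49F, pH 6.0) stood apart for Edn1 at 0.312 FPM with the others from 0.178 to 0.199 and Flt4 at 0.0936 FPM with the others at 0. Library N6 (NRK-52E, pH 7.4) stood apart for Pfkfb3 at 60.1 FPM with the others from 56.0 to 56.3. Library N15 (NRK-49F, pH 6.0) stood apart for P4ha2 at 159 FPM with the others from 144 to 145.

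The pH effect differed between the lines, by the interaction test in edgeR and DESeq2, for the following genes, with the log2 effect in NRK-52E minus that in NRK-49F and the edgeR adjusted p. Among the 10 genes it was Egln1 (-0.54, adjusted p = 0.00934), Ndrg1 (1.67, adjusted p = 0.000465) and P4ha1 (1.06, adjusted p = 8.1e-06). The value of Ndrg1 rests on 27 and 66 fragments in NRK-52E at pH 7.4 and pH 6.0, and its pH effect in that line was not called. Among listed genes with a difference above 0 were Vhl (0.91, adjusted p = 9.3e-06), Elob (1.27, adjusted p = 0.000207), Crebbp (0.80, adjusted p = 0.000852), Stc2 (2.36, adjusted p = 0.000266), Ddit4 (2.43, adjusted p = 3.3e-07) and Edn1 (1.72, adjusted p = 0.000326). The same held, with a difference above 0, for Hk2 (0.81, adjusted p = 0.00708), Aldoc (2.33, adjusted p = 1.6e-05), Vegfd (1.89, adjusted p = 0.000136), Ndrg3 (1.66, adjusted p = 7.5e-05) and Pink1 (0.54, adjusted p = 0.00773). Among listed genes with a difference below 0 were Cited2 (-0.85, adjusted p = 0.00379), Tfrc (-2.79, adjusted p = 2.6e-08), Ca9 (-2.22, adjusted p = 1.4e-06), Plod1 (-1.34, adjusted p = 6.0e-07) and Ak4 (-1.79, adjusted p = 0.000444). The same held, with a difference below 0, for Pfkl (-1.74, adjusted p = 2.2e-06), Slc2a1 (-1.09, adjusted p = 5.6e-05), Nrp2 (-0.94, adjusted p = 0.000472), P4ha3 (-1.17, adjusted p = 0.000105) and P4ha2 (-0.48, adjusted p = 0.00359). Egln3 also passed the test, but NRK-52E had too few fragments of it to test, so the call is not read. Within number 21, an alternative planned for the 10 genes, the calls of Egln1 (-0.52), Ndrg1 (1.04) and P4ha1 (0.92) were lost. That of Egln1 was also lost with the second number as a covariate (-0.54), without a filter on low counts (-0.53) and without most single libraries. Some calls of the listed genes were lost under alternatives chosen after seeing the data. That of Crebbp was lost with library totals (0.55), and within number 21 those of Edn1 (1.15) and Nrp2 (-1.03) were, along with Elob (1.21), Cited2 (-0.66), Ak4 (-1.60), P4ha2 (-0.64), Hk2 (0.88) and Pink1 (0.53). The calls of Hk2 and Pink1 were also lost without any 1 of 12 and 11 of the 16 libraries.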

How the results depend on the processing

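Of 693 values of the 10 genes under the alternatives, 604 kept their direction and their side of the threshold, 44 lost a call, 18 gained one and 27 changed sign. Of 2229 values of other named genes, whose alternatives were chosen after seeing the data, 2036 were kept, 121 lost a call, 30.0 gained one and 42 changed sign. Of 80 values for group levels of the 10 genes, each level once with library totals and once with DESeq2's size factors, 15 moved by more than 1 SD. Every value that changed sign was of a gene not called in that comparison, and the cause was not tested. With the second number as covariate, Bnip3 had -0.14 between the lines at pH 6.0, Bnip3 had 0.068 and Hif1a 0.0086 between the lines at pH 7.4, and Tfrc had -0.0070 for pH in NRK-49F. Within number 21, Bnip3 had -0.15 between the lines at pH 6.0, Bnip3 had 0.066 and Hif1a 0.011 between the lines at pH 7.4, Bnip3 had -0.15, Pfkfb3 0.25, Ramp3 -0.32 and Vegfc -0.11 for the difference in pH effect, Egln1 had -0.039, Nrp1 0.35, Pfkfb4 0.038 and Stc2 -0.20 for pH in NRK-49F, and Ep300 had 0.36 and Rbx1 -0.31 for pH in NRK-52E. With library totals, Bnip3 had 0.24, Hif1a 0.31 and P4ha1 0.071 between the lines at pH 7.4, P4hb had -0.14, Siah2 -0.22 and Vegfc -0.19 for the difference in pH effect, Pfkl had 0.017 for pH in NRK-49F, and Rbx1 had -0.19 for pH in NRK-52E. Within number 22, Crebbp had -0.011 for pH in NRK-52E. With all 16 libraries in one fit, Egln2 had -0.061 between the lines at pH 7.4. Within number 20, Egln3 had -0.039, Pfkl 0.050 and Tfrc -0.33 for pH in NRK-49F. In DESeq2 alone, Hif1a had 0.0048 between the lines at pH 7.4. With DESeq2's size factors in edgeR, Hif1a had 0.0031 between the lines at pH 7.4. Without a filter on low counts, Rbx1 had -0.0091 for pH in NRK-52E. When each library was left out in turn, values crossed 0 in these ranges. Log2 differences for pH in NRK-52E ran for Ak4 from -0.20 to 0.038 and Rbx1 from -0.23 to 0.10. Log2 differences between the lines at pH 6.0 ran for Bnip3 from -0.0014 to 0.28. Log2 differences between the lines at pH 7.4 ran for Bnip3 from -0.29 to 0.061, Egln2 from -0.029 to 0.089 and Hif1a from -0.074 to 0.051. Log2 differences for pH in NRK-49F ran for Ddit4 from -0.11 to 0.024, Egln1 from -0.034 to 0.10, Pfkl from -0.12 to 0.047, Stc2 from -0.25 to 0.22 and Tfrc from -0.16 to 0.19. Log2 differences for the difference in pH effect ran for P4hb from -0.067 to 0.17, Pfkfb3 from -0.18 to 0.043, Siah2 from -0.11 to 0.18 and Vegfc from -0.080 to 0.14.

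Counts were within 1.5 times of the reported ones apart from the following, where fewer libraries, or a looser threshold, were used by construction. Within number 21, the genes called were 1980.0 for pH in NRK-49F, 5679 between the lines at pH 7.4 and 2522 for the difference in pH effect, and within number 22 they were 2820.0 for pH in NRK-52E. Of the 10 genes, 2 were called for pH in NRK-49F and 0 for the difference in pH effect within number 21, and 3 for pH in NRK-52E within number 22. At an adjusted p below 0.05 in edgeR and DESeq2, 8 were called for the difference in pH effect. With each library left out in turn, this count ran from 2 to 5, with 2 without N1, N4, N5 or N7. Calls lost without single libraries are given beside the gene. Among listed genes, the difference in pH effect was not called but was called without single libraries for Ep300, Ero1a, Lox, Nrp1, Pfkfb4, Ramp2 and Rbx1. Libraries could not be paired by replicate number, since these numbers are not shared between groups. The labels do not say which libraries of the lines shared a well. A blocked analysis used the second number as a covariate within lines and between them. Number 22 is only in NRK-52E and number 20 only in NRK-49F. Line differences at equal pH therefore rest on number 21 in that fit, and it nearly repeats the fit within number 21. Depth limits Epas1 in both lines, and Adm, Egln3 and Ndrg1 in NRK-52E, to between 0 and 66 fragments a group. Fragments that map to several places were counted at all of them, which adds uncertainty for genes with close copies.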
